A study of Arabidopsis thaliana with 8 samples.

Results

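A set of 252 probe sets was described whose signal stood above wild type in all 3 transgenic Arabidopsis lines with raised GRF3 or GIF1 activity. They were chosen from the measured values. Among the 14005 tested probe sets, a member had to lie at least 0.5 above Col-0 (log2) in the double line rGRF3x35S:GIF1 on the array lettered A and on the array lettered B. The means of 35S:GIF1 and of rGRF3 each had to lie at least 0.3 above the Col-0 mean. The members made up 1.8% of the tested probe sets, and the same rule turned downwards found 157, or 1.12%. Of the members 135 had exactly 1 gene in the platform annotation, for 134 different genes, 2 had several and 115 had none listed. The 1 probe set that the choice leaves out by its identifier did not meet the thresholds. Differences from Col-0 in the members are therefore descriptions, and no test is given for them.

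The 4 genotypes were wild-type Col-0, a GIF1 overexpressor (35S:GIF1), a GRF3 overexpressor (rGRF3) and the combination of both transgenes. Each was measured on 2 Affymetrix ATH1 arrays, A and B, from vegetative shoot apices dissected with their leaf primordia. Plants were 20 days old and had grown on soil in short days, with 8 h of light and 16 h of dark, at 23 °C. The ecotype is labelled for the wild type alone (Col-0). The 35S promoter is active at a high level in nearly every tissue, and in published work rGRF3 is a version of GRF3 that its microRNA cannot cleave. The labels do not say how many lines or plants stand behind an array, nor that the arrays come from separate cultures. The p-values below thus cover only how far these samples spread, and that spread may be technical. All 3 differences are taken from the same 2 Col-0 arrays, whose deposited values carry 9 decimals against 3 for the other arrays.

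GRF proteins are plant transcription factors, and GIF proteins are co-activators that bind them and recruit chromatin remodelling complexes. In young leaves they keep cells dividing, and the microRNA miR396 limits most GRF transcripts. More GRF or GIF activity is known for larger leaves with more cells, while loss of either gives small, narrow leaves. In a whole apex, fewer cells of a type and less RNA per cell cannot be told apart.

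GIF1 and GRF3 had no named probe set, so the transgenes could not be checked. Of the 17 genes of the GRF and GIF list, 1 had a named probe set. This was SWP73B, a subunit of the SWI/SNF chromatin remodelling complex, which was no member and lay 0.08 above Col-0 in the double line. Among 18 markers of the shoot apex and leaf primordium, the adaxial gene PHV and the abaxial gene YAB3 had a named, tested probe set and were no members. The stem cell marker CLV3 lay at the arrays' floor in every genotype. Of 6 stomatal lineage markers 3 were named: SPCH, MUTE and FMA lay below Col-0 in the double line, by -0.17, -0.52 and -0.67, and their part in the members' differences was not tested. No flower, root, trichome or vascular marker had a named probe set. On the A array of the double line the 25S ribosomal RNA control had a signal of 10.9, against 6.22 to 8.23 elsewhere, and its part was not tested either.

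The median member lay 0.99 above Col-0 in the double line, 0.81 in rGRF3 and 0.59 in 35S:GIF1 (log2 difference, n = 2 arrays per genotype). Over all tested probe sets these medians were -0.01, -0.02 and -0.01. A difference of at least 1, a doubling of the signal, was reached by 125 members in the double line, 81 in rGRF3 and 38 in 35S:GIF1. The median member had a log2 signal of 6.23 in Col-0, below the 7.69 of all tested probe sets. Of the tested probe sets with a Col-0 mean under 6, 4.07% were members, against 0.758% of those at 10 or above. The Col-0 arrays also enter the choice of members, and 10 members had both Col-0 arrays under 4. These levels and shares are therefore not independent of the choice, and nothing is read from them. In 19 members the Col-0 mean lay under 4, so the size of their difference is not exact, and 213 members had a signal of at least 4 on all 8 arrays.

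The A and B arrays of the single lines were not held to the thresholds one by one. In 35S:GIF1, 223 members lay above Col-0 in both letters, 9 lay below it on the A arrays and 20 below it on the B arrays. In rGRF3 the corresponding counts were 233, 14 and 5. All 6 transgenic arrays lay above both Col-0 arrays in 143 members (56.7%), and in 3.84% of all tested probe sets. Both arrays of 35S:GIF1 lay above both Col-0 arrays in 158 members (9.23% of all tested), both of rGRF3 in 180 (11.5%) and both of the double line in 208 (15.8%). In 211 members every transgenic array lay above the Col-0 array of its letter (9.78% of all tested). The choice of members fixes most of this, so nothing is read from it. The members also varied more between the 2 arrays of every genotype. In Col-0 the median absolute difference was 0.55, against 0.31 over all tested probe sets. It was 0.375 against 0.229 in 35S:GIF1, 0.476 against 0.234 in rGRF3 and 0.488 against 0.235 in the double line. The members were chosen on these same arrays and had a lower Col-0 signal, so nothing is read from this either.

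**Figure D1:**
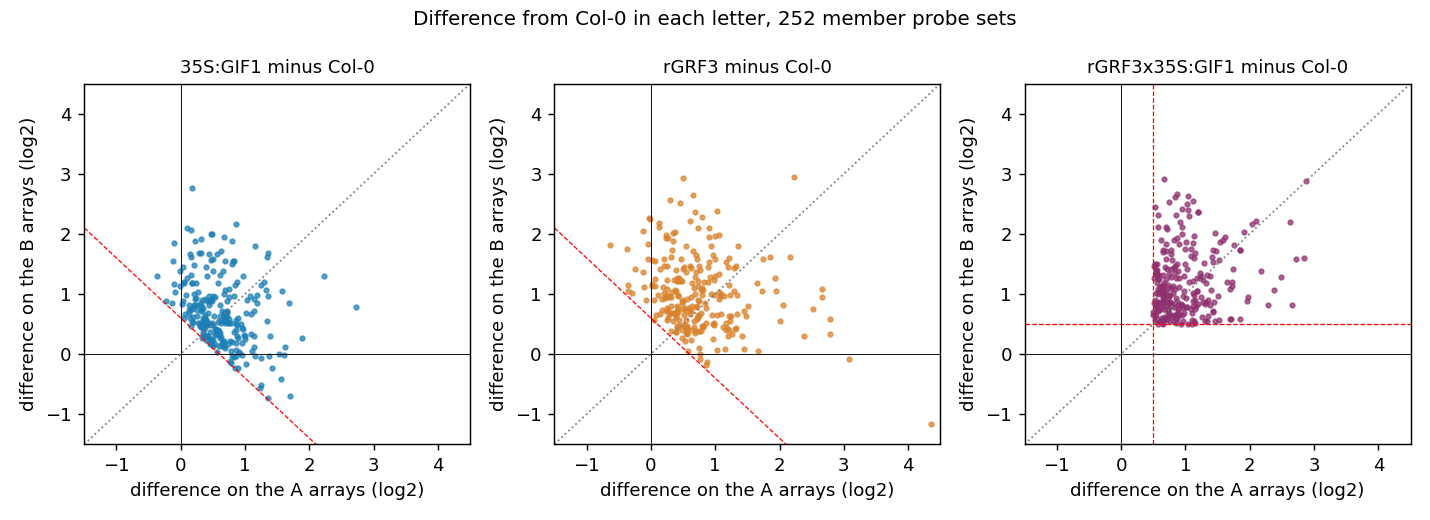
Difference from Col-0 (log2) of the 252 members on the A arrays (x axis) and the B arrays (y axis), for 35S:GIF1, rGRF3 and the double line. Red dashed lines are the thresholds, the dotted line marks equal differences, and in 35S:GIF1 20 members lie below 0 on the B arrays.

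The 4 conditions did not bind equally. When the other 3 were met, 280 probe sets failed only in the double line on the A arrays, 57 only in the double line on the B arrays, 96 only in 35S:GIF1 and 14 only in rGRF3. The member closest to the A threshold, 263981_at, lay at 0.503, and 247043_at lay just outside it at 0.4999. On the B arrays the ER body enzyme gene PYK10 lay just inside at 0.503 and 255037_at just outside at 0.491. In 35S:GIF1 the edge ran between 250339_at (0.301) and AT4G20320 (0.294). In rGRF3 it ran between AT3G26760 (0.307) and the bZIP factor gene BZIP61 (0.296). The count of members depended on single arrays. It was 906 without Col-0 replicate A, 422 without Col-0 replicate B and 532 without rGRF3x35S:GIF1 replicate A, settings that judge the double line in 1 letter.

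The serine carboxypeptidase-like gene scpl31 (AT1G11080) had the largest difference in the double line. Genes of this family encode secreted or vacuolar proteins related to peptidases, some of which transfer acyl groups. On the A and B arrays scpl31 had a log2 signal of 4.56 and 4.83 in Col-0, 5.36 and 6.72 in 35S:GIF1, 6.78 and 7.78 in rGRF3, and 7.43 and 7.71 in the double line. Both Col-0 arrays lay below all 6 others, and the double line overlapped rGRF3. The double line, at 7.57 ± 0.20, was 7.33-fold above Col-0, at 4.69 ± 0.19 (mean and SD of 2 arrays).

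The thionin gene THI2.2, of a family of small antimicrobial peptides, had a signal of 6.78 and 8.70 in Col-0, 8.13 and 9.25 in 35S:GIF1, 8.26 and 9.33 in rGRF3, and 9.50 and 10.29 in the double line. The B array was the higher one in every genotype, so Col-0 overlapped both single lines but not the double line. Within a letter each transgenic array lay above its Col-0 array, by 2.72 and 1.59 in the double line.

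AT1G02360 had a signal of 3.18 and 3.85 in Col-0, 4.58 and 4.15 in 35S:GIF1, 5.57 and 4.15 in rGRF3, and 5.81 and 6.04 in the double line. The double line lay above all other arrays, and the Col-0 mean of 3.52 lies under 4, so its 5.31-fold difference is not exact. AT2G39210 had 6.41 and 7.19 in Col-0, 7.56 and 7.49 in 35S:GIF1, 8.47 and 8.01 in rGRF3, and 8.45 and 9.35 in the double line. Its Col-0 arrays were the lowest of the 8, and the double line was 4.27-fold above Col-0. AT1G72060 had 4.92 and 4.43 in Col-0, 5.62 and 4.98 in 35S:GIF1, 6.21 and 5.86 in rGRF3, and 6.77 and 6.16 in the double line. The genotypes kept this order within each letter.

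AT4G21870 ran differently. It had a signal of 8.07 and 6.57 in Col-0, 8.53 and 8.56 in 35S:GIF1, 7.82 and 7.99 in rGRF3, and 8.74 and 9.49 in the double line. The Col-0 A array lay above both rGRF3 arrays, and the difference in the double line was 0.67 in letter A and 2.92 in letter B. AT2G24160 had 4.41 and 4.79 in Col-0 and 5.63 and 4.23 in 35S:GIF1, so these groups overlapped. It stood at 6.34 and 5.83 in rGRF3 and at 6.26 and 6.52 in the double line, above every other array. Of the remaining genes among the 12 single-gene members with the largest differences, AT4G38550, AT1G19380 and AT1G23840 had mean differences of 1.83, 1.78 and 1.78 in the double line.

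AT5G28630 had a difference of 1.78 in the double line and is the neighbouring protein-coding gene of GIF1 (AT5G28640) in the TAIR10.1 gene table. Its signal was 4.53 and 3.73 in Col-0, 6.75 and 5.03 in 35S:GIF1, 6.70 and 5.34 in rGRF3, and 6.28 and 5.54 in the double line. All transgenic arrays lay above Col-0, and the 3 transgenic means (5.89, 6.02 and 5.91) lay within the spread of their arrays. The choice of members required a higher mean in rGRF3 too, and a link to the GIF1 locus was not tested.

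**Figure D2:**
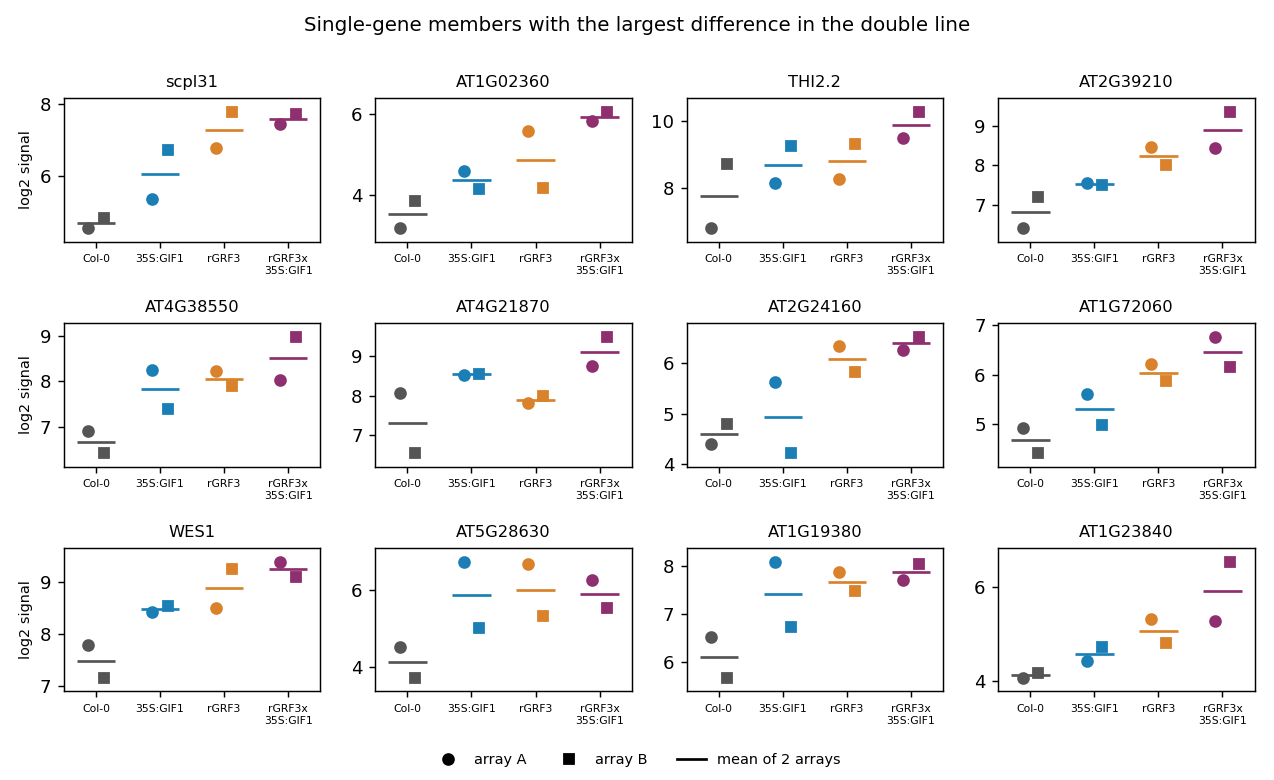
Log2 signal (y axis, its own scale in each panel) of the 12 single-gene members with the largest mean difference in the double line, by genotype. Circles are A arrays, squares B arrays and bars the mean of 2 arrays; scpl31 runs from 4.56 in Col-0 to 7.78 in rGRF3.

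Auxin conjugation genes were among the members. WES1, also called GH3.5, and GH3.17 encode enzymes that join auxin to amino acids and so take it out of the active pool. WES1 had a signal of 7.78 and 7.16 in Col-0, 8.43 and 8.54 in 35S:GIF1, 8.51 and 9.26 in rGRF3, and 9.40 and 9.11 in the double line. Its Col-0 arrays lay below all others, and the double line was 3.45-fold above Col-0. GH3.17 had 7.30 and 7.29 in Col-0, 8.16 and 7.69 in 35S:GIF1, 8.04 and 8.17 in rGRF3, and 8.50 and 8.13 in the double line, a 2.03-fold difference with no overlap. Of the 5 tested genes of the auxin list these 2 were members. The third GH3 gene, GH3.3, lay 0.17, 0.46 and 0.40 above Col-0 in 35S:GIF1, rGRF3 and the double line, while IAA18 and IAA30, which encode Aux/IAA repressors, lay at -0.06 and 0.34 in the double line. The median of the list was 0.40 in the double line, against -0.01 over all single-gene probe sets. This median is the value of GH3.3, which lay at 0.78 in letter A and 0.02 in letter B. With 2 of the 5 genes chosen for high values, nothing is read from it.

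Wall genes were represented by few members. ATPMEPCRB, a pectin methylesterase gene whose product removes methyl groups from pectin, had 6.61 and 6.92 in Col-0, 9.33 and 7.70 in 35S:GIF1, 9.28 and 7.87 in rGRF3, and 8.79 and 8.30 in the double line. All transgenic arrays lay above Col-0, and the means of the single lines, 1.75 and 1.81 above Col-0, were as high as that of the double line, at 1.78. EXPA8, an expansin gene of wall loosening, had 7.94 and 5.85 in Col-0 and 8.38 and 7.52 in 35S:GIF1. It had 8.66 and 7.42 in rGRF3 and 8.85 and 8.04 in the double line, so only the double line lay above both Col-0 arrays. Its difference in the double line was 0.92 in letter A and 2.19 in letter B. EXPA8 was the 1 member among 16 tested expansin and xyloglucan endotransglucosylase genes, whose median in the double line was -0.02. ATPMEPCRB was 1 of 4 pectin-modifying genes, with a median of 0.38. TBL38, of the trichome birefringence-like family, was chosen after its values were seen. It lay 0.40, 0.50 and 0.97 above Col-0 in 35S:GIF1, rGRF3 and the double line. It was the 1 member among 15 tested genes of its family.

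NAI1, PYK10 and JAL33, named after their values were seen, are linked to the ER body. This is a store of beta-glucosidase in the endoplasmic reticulum that is known from defence in Arabidopsis and its relatives. NAI1 is the bHLH factor needed for ER bodies. It had a signal of 5.66 and 5.39 in Col-0, 5.95 and 5.85 in 35S:GIF1, 5.91 and 6.85 in rGRF3, and 6.31 and 6.35 in the double line, with all transgenic arrays above Col-0. PYK10, the main beta-glucosidase of ER bodies, had 11.65 and 12.20 in Col-0, 12.31 and 12.39 in 35S:GIF1, 12.32 and 12.74 in rGRF3, and 12.58 and 12.70 in the double line. Its groups did not overlap with Col-0 either, and its differences of 0.43, 0.61 and 0.71 are small on a very high signal. JAL33, a jacalin-related lectin found in complexes with PYK10, had 9.38 and 9.02 in Col-0 and 9.72 and 9.35 in 35S:GIF1, which overlapped. It had 9.92 and 10.38 in rGRF3 and 10.50 and 10.04 in the double line, both above every Col-0 and 35S:GIF1 array.

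A list of 16 ER body genes was written after the members were known, and 7 had a named probe set, of which NAI1, PYK10 and JAL33 were members. In the double line all 7 lay above Col-0 in both letters, which the choice of members had fixed for NAI1, PYK10 and JAL33. The list was also written after the members were known, so nothing is read from this count. NAI2, an ER body structural protein, lay 0.18, 0.41 and 0.42 above Col-0 in 35S:GIF1, rGRF3 and the double line. The lectin gene JAL34 lay at 0.25, 0.79 and 0.82, and JAL22 at 0.21, 0.91 and 1.22, so these genes missed the threshold in 35S:GIF1. JAL23 lay below Col-0 in 35S:GIF1, at -1.54, and above it in the double line, at 0.51, and in rGRF3, at 1.34.

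Enzymes that decorate small molecules gave further members. UGT72E1, which glucosylates lignin precursors, had 5.53 and 5.72 in Col-0, 5.83 and 6.24 in 35S:GIF1, 5.78 and 6.80 in rGRF3, and 6.52 and 7.21 in the double line, with no overlap with Col-0 and a 2.36-fold difference. UGT85A2, of the same family of UDP-glycosyltransferases, had 6.24 and 7.07 in Col-0, 6.30 and 7.74 in 35S:GIF1, 6.66 and 7.83 in rGRF3, and 7.02 and 7.92 in the double line. Here the B arrays were the higher ones, and every genotype overlapped Col-0. These were 2 members among 22 tested genes of the family, whose median in the double line was 0.04.

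Cytochrome P450 enzymes insert oxygen into small molecules, and CYP71B23 and CYP71B37 were members among 9 tested genes recognised by symbol or synonym. All 9 were of the CYP71B subfamily, with a median of 0.10 in the double line, so other P450 genes can be missing from this count. CYP71B23 had 2.73 and 5.49 in Col-0, 3.62 and 5.25 in 35S:GIF1, 5.52 and 5.83 in rGRF3, and 5.11 and 6.55 in the double line. The Col-0 B array lay above both 35S:GIF1 arrays, and in letter B the 35S:GIF1 difference was negative. CYP71B37 had 4.74 and 6.32 in Col-0, 5.98 and 6.26 in 35S:GIF1, 5.54 and 7.42 in rGRF3, and 6.69 and 7.21 in the double line. Only the double line lay above both Col-0 arrays. SCPL34, the second carboxypeptidase-like member of 14 tested, had 5.93 and 5.51 in Col-0, 6.34 and 6.20 in 35S:GIF1, 6.79 and 6.28 in rGRF3, and 6.68 and 6.50 in the double line, with no overlap with Col-0.

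**Figure D3:**
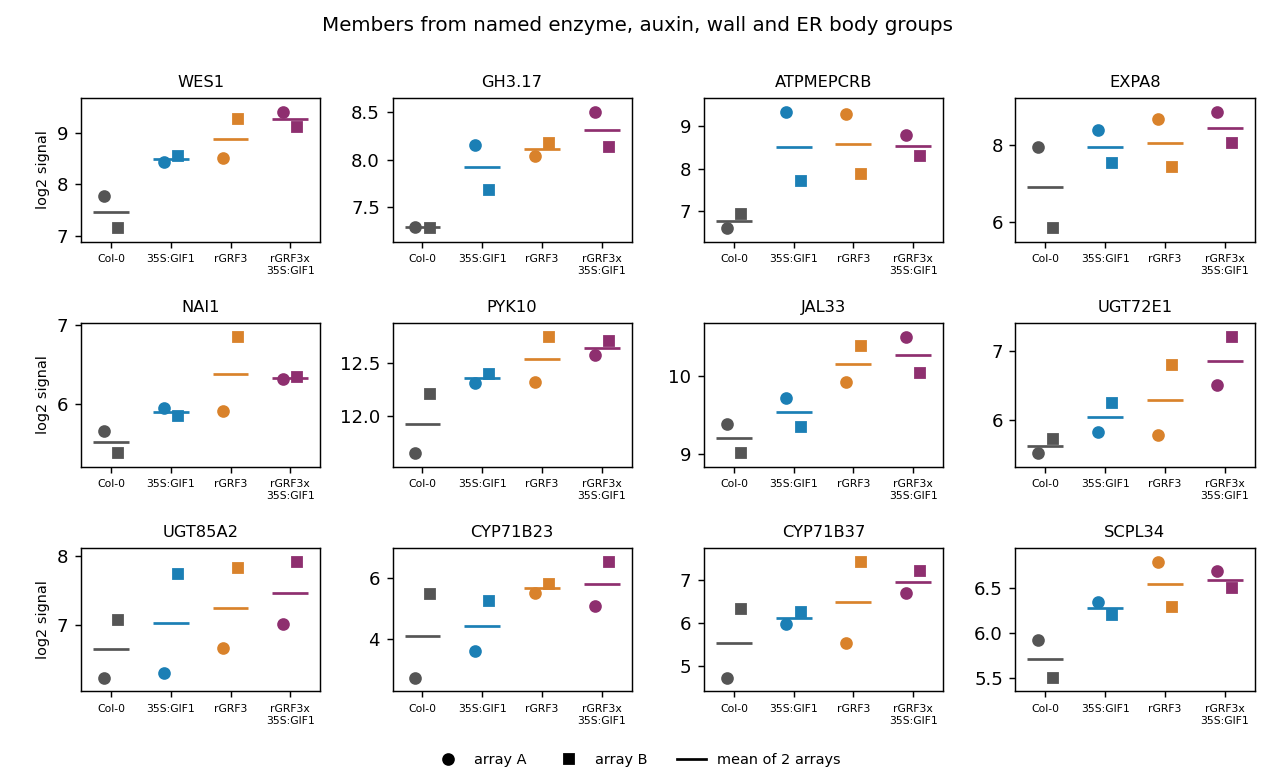
Log2 signal (y axis, its own scale in each panel) of 12 members of the auxin, wall, ER body, glycosyltransferase, P450 and carboxypeptidase groups, by genotype. Circles are A arrays, squares B arrays and bars the mean of 2 arrays; WES1 and GH3.17 show no overlap between Col-0 and the transgenic lines, and UGT85A2 shows overlap in all of them.

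Of the other lists, the transporter list had 1 member among 14, AT1G59740, which encodes NPF4.3 of the nitrate and peptide transporter family. It had 4.69 and 7.26 in Col-0 and 6.98 and 8.08 in the double line, with differences of 2.28 in letter A and 0.82 in letter B. The defensin, thionin and pathogenesis list had THI2.2 as 1 of 5. No member was found among 7 tubulins, 6 subtilases, 26 probe sets of other peptidases and protease inhibitors, 4 peroxidases, 7 glutathione S-transferases or 37 transcription factor genes recognised by symbol or synonym. Over all single-gene probe sets the share of members was 1.78%, or 135 of 7599. Tested probe sets of lipid transfer proteins and receptor-like kinases were not recognised by name, so those lists gave no count.

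Several regulators were members whose names the transcription factor list did not capture, and they were chosen after their values were seen. AT5G61590, known as DEWAX, is an ERF factor that represses wax synthesis. It had 7.72 and 8.45 in Col-0, 8.55 and 10.004 in 35S:GIF1, 8.72 and 10.03 in rGRF3, and 9.14 and 10.18 in the double line, all above both Col-0 arrays. MYBC1, a MYB factor, had 7.18 and 6.54 in Col-0, 7.56 and 7.12 in 35S:GIF1, 8.01 and 7.73 in rGRF3, and 8.16 and 7.84 in the double line. Both lines with rGRF3 lay above all arrays without it. XERICO, a RING-finger protein that raises abscisic acid levels, had 7.59 and 7.61 in Col-0, 7.84 and 8.24 in 35S:GIF1, 7.90 and 8.56 in rGRF3, and 8.32 and 8.58 in the double line. Its Col-0 arrays differed by less than those of any other genotype and lay below them.

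JKD, a zinc-finger factor of root patterning, had 5.14 and 4.76 in Col-0, 5.81 and 5.44 in 35S:GIF1, 5.66 and 5.24 in rGRF3, and 5.81 and 5.35 in the double line, with no overlap with Col-0. The lysine degradation gene AT4G33150 (LKR/SDH) lay 0.67, 0.81 and 1.27 above Col-0 in 35S:GIF1, rGRF3 and the double line. CCL, a clock-regulated transcript, had 10.23 and 10.22 in Col-0 and 11.26 and 12.62 in the double line, with differences of 1.03 in letter A and 2.40 in letter B.

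The largest differences among probe sets with no listed gene were those of 246831_at, 264902_at, 263443_at, 254255_at and 264624_at. The first had 2.99 and 6.17 in Col-0 and 5.82 and 7.77 in the double line, so these groups overlapped. Probe set 264902_at had 3.89 and 3.69 in Col-0, 5.24 and 5.30 in 35S:GIF1, 5.64 and 5.27 in rGRF3, and 5.99 and 5.90 in the double line. Its arrays lay furthest apart in rGRF3. No Col-0 array came near the others, although a Col-0 mean of 3.79 leaves the size of its difference inexact. The mean differences in the double line were 1.97 for 263443_at, 1.89 for 254255_at and 1.83 for 264624_at. The member with the highest Col-0 signal, 266215_at, had a Col-0 mean of 12.96 and a difference of 0.58.

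Members shared a source in few cases. AT1G31710, singled out for this after its values were seen, was measured by 2 probe sets, with differences of 0.73 and 0.65 in the double line, 0.58 and 0.64 in rGRF3, and 0.35 and 0.31 in 35S:GIF1. Among single-gene members, 2 pairs were adjacent protein-coding genes in the TAIR10.1 table: AT3G52060 with AT3G52070, and P1R1 with AT5G57785.

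The single lines were compared with each other. The choice of members set the same threshold of 0.3 for both, but 96 probe sets failed only in 35S:GIF1 and 14 only in rGRF3. In 200 of the 252 members rGRF3 had the higher mean, against 46.4% of all tested probe sets, and the median of rGRF3 minus 35S:GIF1 was 0.17, against -0.01. Taken by letter, the median was 0.05 for A and 0.26 for B. Among the 157 probe sets lower in all 3 lines it was -0.14, so there too rGRF3 lay further from Col-0. Over all tested probe sets the absolute difference from Col-0 had a median of 0.15 in rGRF3 and 0.11 in 35S:GIF1. In 129 members rGRF3 was higher in both letters (24.8% of all tested), and in 20 it was lower in both (29.3%). Both rGRF3 arrays lay above both 35S:GIF1 arrays in 54 members (21.4%, against 9.84% of all tested), and the reverse held for 5 (1.98%, against 11.9%). Both means enter the choice of members, and the threshold excluded more probe sets in 35S:GIF1. These counts and medians are therefore not independent of the choice, and they are descriptions only.

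No member passed in limma's fit across all 14005 probe sets at an adjusted p of 0.05 (0 of 252). In that fit 0.00714% of all tested passed in either direction, which is 1 probe set. At an unadjusted p under 0.05, 5 members were higher in rGRF3 and 0 lower, against 0.635% and 0.478% of all tested, or 1.11% in either direction. With the letter as a replicate block 0 members passed, against 0.00714% of all tested. At an unadjusted p under 0.05 that fit had 20 members higher (7.94%, against 2.71% of all tested) and 2 lower (0.794%, against 1.82%). Together they were 8.73% of the members, against 4.53% of all tested. These counts are not independent of the choice of members either.

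In the fit without the letter, the lowest p-values towards rGRF3 among single-gene members were those of AT2G27830, AT2G24160, scpl31 and JAL33. That fit takes no account of the pairing of the letters. AT2G27830 had 7.36 and 7.28 in 35S:GIF1 and 7.71 and 8.13 in rGRF3, a log2 difference of 0.60 (standard error 0.23, adjusted p = 1 in limma's fit). In scpl31 the difference was 1.24 (standard error 0.51), in AT2G24160 1.16 (0.46) and in JAL33 0.62 (0.26), each with an adjusted p of 1 in limma's fit. In these 4 genes both rGRF3 arrays lay above both 35S:GIF1 arrays. With the letter as a replicate block, the standard error for scpl31 was 0.29 (unadjusted p = 0.0051 in limma's fit). In the same blocked fit AT1G72060 differed by 0.74 (standard error 0.12). Its p-value was lower, at 0.00096 unadjusted and 0.49 adjusted in limma's blocked fit. Towards 35S:GIF1 the lowest p-values among single-gene members in the fit without the letter were those of AT3G06070 (-0.46), AT4G21870 (-0.64), AT2G22890 (-0.13) and AT3G26760 (-0.15). None of them passed.

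**Figure D4:**
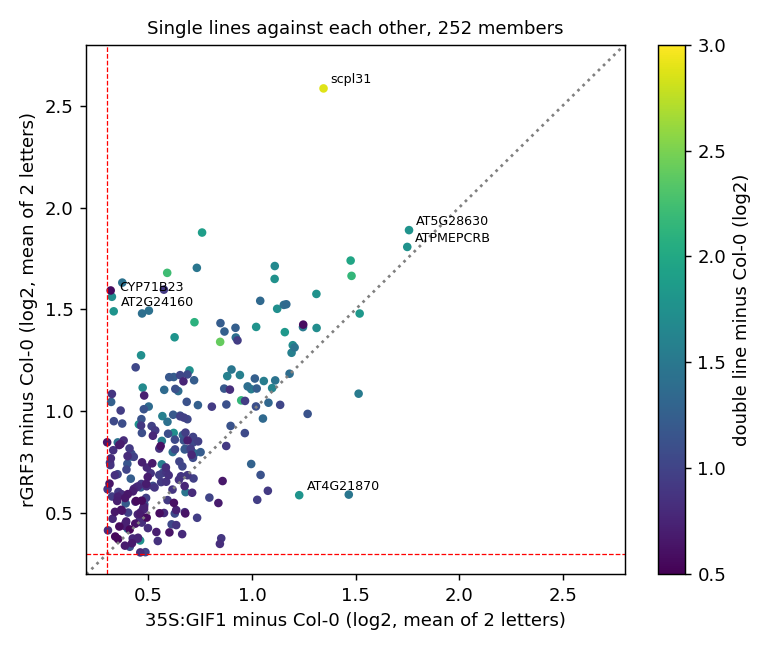
Mean log2 difference from Col-0 in 35S:GIF1 (x axis) and rGRF3 (y axis) for the 252 members, coloured by the difference in the double line. Red dashed lines are the thresholds of 0.3 and the dotted line marks equal differences; 200 members lie above it.

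The double line had the highest mean of the 3 lines in 204 members, and in 105 members it did so in both letters. It exceeded 35S:GIF1 in 240 and rGRF3 in 212. The median of the double line minus rGRF3 was 0.21 and that of the double line minus 35S:GIF1 was 0.36, against 0.01 and 0.00 over all tested probe sets. Both arrays of the double line lay above both rGRF3 arrays in 56 members (22.2%, against 12.1% of all tested). They lay above both 35S:GIF1 arrays in 106 (42.1%, against 14.1%). The threshold was higher for the double line than for the single lines, so these values follow in part from the choice of members, and no test is given. The median against rGRF3 was 0.11 without rGRF3 replicate A, 0.37 without rGRF3 replicate B and 0.12 without rGRF3x35S:GIF1 replicate B.

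The difference in the double line was smaller than the sum of the differences in the single lines in 228 members. This non-additive term, the effect of 35S:GIF1 on top of rGRF3 less its effect in wild type, had a median of -0.39, or -0.24 within letter A and -0.48 within letter B, against 0.02 over all tested probe sets. It lay within 0.3 of 0 in 99 members, at or below -0.3 in 149 and at or above 0.3 in 4. The Col-0 arrays enter the sum of the single lines once more than they enter the double line, and members were chosen for a low Col-0 signal. This median is therefore a description only, and it was -0.24 without Col-0 replicate B and -0.26 without rGRF3 replicate B.

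AT2G20670, chosen for this value, had the lowest such term, at -2.09. Its signal was 9.19 and 7.53 in Col-0, 9.68 and 9.53 in 35S:GIF1, 9.48 and 10.09 in rGRF3, and 9.85 and 8.03 in the double line. The B array of the double line lay below both single lines. The terms of AT5G28630 and ATPMEPCRB were -1.87 and -1.78, and both genes had nearly equal means in the 3 lines. At the other end 248037_at had a term of 0.94. It had 4.74 and 3.59 in Col-0, 4.77 and 4.48 in 35S:GIF1, 4.82 and 4.25 in rGRF3, and 5.60 and 6.26 in the double line, which alone lay clear of Col-0.

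The letters A and B were compared over all 4 genotypes, a difference that the choice of members does not use. The calls also rest on the remaining spread of the arrays, which the thresholds within each letter touch. The shares called are therefore not fully independent of the choice. In limma's fit with genotype and letter, 84 members passed at an adjusted p of 0.05 (33.3%, against 24.6% of all tested). On the B arrays 54 were higher (21.4%, against 11.8%) and 30 lower (11.9%, against 12.7%). The median difference over the members was 0.03. Of the probe sets lower in all 3 lines 56.7% passed. The labels do not say what the letters mark.

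Among single-gene members the largest differences towards the B arrays were those of AT4G30660, AT3G44970, AT4G16870 and CYP71B23. In AT4G30660 the A arrays averaged 8.56 ± 0.28 and the B arrays 10.98 ± 0.43 (SD, n = 4 of each letter), a log2 difference of 2.41 (adjusted p = 0.00038 in limma's fit). Its differences from Col-0 in the double line, 0.67 and 1.0, were smaller than this. AT3G44970 differed by 1.81, AT4G16870 by 1.79 and CYP71B23 by 1.54, with adjusted p of 0.00761, 0.00556 and 0.0295 in limma's fit. Towards the A arrays AT5G12940 differed by -1.63, AT3G23880 by -1.52, EXPA8 by -1.25 and AT5G28630 by -1.15, with adjusted p of 0.0095, 0.0239, 0.0135 and 0.00985. All 8 genes had the same direction in all 4 genotypes. A probe set with no listed gene, 256766_at, singled out after its values were seen, had the largest difference of all members, at 3.82. Its signal was 6.97 and 12.67 in Col-0, 8.32 and 11.95 in 35S:GIF1, 11.31 and 11.51 in rGRF3, and 7.50 and 13.27 in the double line. The letters lay close together in rGRF3 alone, and in letter B both single lines lay below Col-0.

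For these genes a mean over 2 arrays has a wide spread, such as 6.89 ± 1.48 for EXPA8 in Col-0 (SD, n = 2). The call of AT3G23880 ended when either array of any transgenic line was left out, and that of CYP71B23 when an array of 35S:GIF1 or of the double line was left out. The number of members called was 39 without either 35S:GIF1 array and 53 without either array of the double line. With no filter on low values it was 17. The count over all probe sets fell from 3439 in each of these settings too, so the drop is not particular to the members.

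**Figure D5:**
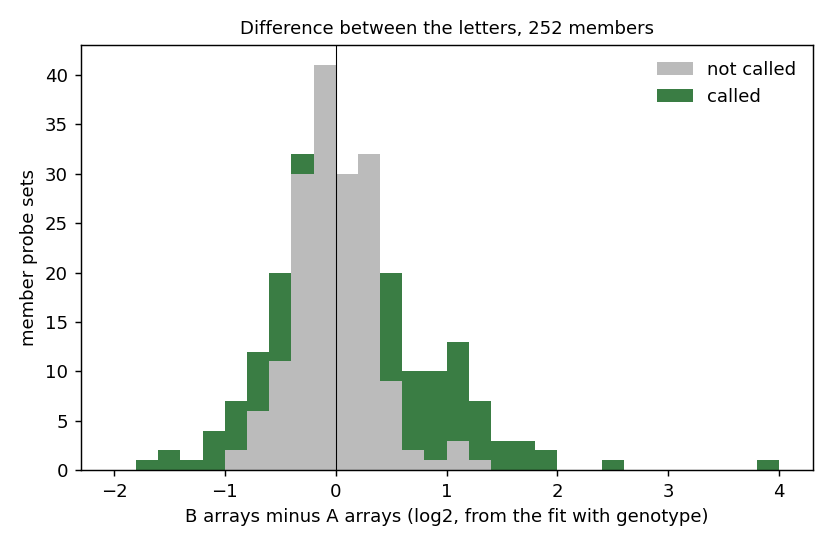
Histogram of the difference between B and A arrays (log2, x axis) for the 252 members, from the fit with genotype; the y axis counts probe sets, and green marks those called at an adjusted p of 0.05. The members spread on both sides of 0, with 54 called higher and 30 called lower on the B arrays.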

How the data were processed

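The log2 values were used as deposited by the authors, who list GCRMA (background correction, normalisation and probe summary) and limma, per the submitters' processing notes. Their versions are not given in the sources used here, and all 8 deposited columns were used. The 64 control probe sets of 22810 were left out, and a probe set was tested where its log2 value was at least 4 on at least 2 arrays. The members and all gene lists were chosen with earlier results of these data known.

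Differences were taken within letters and as means. The single lines were compared with limma 3.58.1 in R 4.3.3 (group means of all 4 genotypes, eBayes), and the letters with a fit of genotype and letter. P-values were adjusted by Benjamini-Hochberg over all tested probe sets, with a threshold of 0.05. Both fits were tested on simulated data. The rest was computed in pandas 2.3.3 and numpy 2.4.6 and drawn with matplotlib 3.10.9, under Python 3.11.15. The number of arrays limits the precision.

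Genes named were the 12 single-gene members with the largest difference in the double line, 4 per direction and test (the largest among those called, otherwise those with the lowest p), up to 4 members per family list, the members at each threshold, and 5 probe sets with no single gene. NAI1, JAL33, PYK10, XERICO, MYBC1, AT5G61590, TBL38, JKD, CCL, AT4G33150, AT2G20670, AT1G31710, 248037_at and 266215_at were added after their values were seen. Families were recognised by gene symbol or by synonym in the TAIR10.1 gene table. Product descriptions were not searched, so the family counts can miss genes.

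The letters were checked as pairs: deviations of same-letter arrays from their group means correlated in all 6 pairs of genotypes (r from 0.59 to 0.75 over the tested probe sets, which are not independent replicates). The pairing comes from the data, and the labels do not state it. Alternatives were other filters and thresholds, other scalings, other variance models, the letter as a block, only the arrays compared, and each array left out.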

Additional observations from a re-analysis of the deposited data

Results flagged for a closer look

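The effect of rGRF3 on AT3G06070 differed in sign with and without 35S:GIF1 on both letters. Alone, rGRF3 stood above Col-0 by 0.67 in letter A and 0.46 in letter B (log2). Added to 35S:GIF1, it gave -0.02 and -0.12, with a mean of -0.071. JKD showed the same pattern, with 0.52 and 0.48 for rGRF3 alone and -0.003 and -0.094 when added, a mean of -0.0485. Neither difference was tested, the values with the added transgene lie close to 0, and both genes were chosen on the same arrays.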

How the results depend on the processing

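The number of members, 252, stayed between 239 and 261 with no filter on low values, a filter at 5, centred arrays or quantile-normalised arrays. It was 43 with stricter thresholds of 1 and 0.6, and 118 when the single lines had to reach 0.3 within each letter. Leaving out 1 array gave 203 to 906. For rGRF3 minus 35S:GIF1 in limma's fit, 0 members were called in every setting run, and 1 to 26 had an unadjusted p under 0.05. Over all tested probe sets 1 was called, against 3 with no filter, 0 with only the arrays compared, 0 to 1 with an array left out and 8 with the letter as a block plus trend and robust variances, a setting chosen after seeing the data. With the letter as a replicate block alone, 1 was called, and it changed no call of a named member. Between the letters 3439 probe sets and 84 members were called, against 1069 and 17 with no filter on low values. With an array left out the counts were 1063 to 2634 and 39 to 81. The cause was not tested, except that a genotype with 1 array no longer informs the letter. The low counts came without either 35S:GIF1 array (1063), rGRF3 array (1969) or double-line array (1796). For the 8 named letter results, each pair of gene and alternative setting was counted. The call was lost in 17 of these pairs and kept in 79, and none reversed. The member median of the double line minus rGRF3 was 0.11 to 0.37 with an array left out, that of the double line minus 35S:GIF1 0.27 to 0.44, and that of the non-additive term -0.50 to -0.24. Signals near the floor of 2.12 limit the size of differences for members with a low Col-0 level.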
